A study of Mus musculus with 6 samples.

Results

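Aminoacyl-tRNA synthetases are the enzymes that join each amino acid to its tRNA, and the 36 nuclear genes for them described here were taken by name. They comprised 20 genes for the cytosolic enzymes and 16 genes for the mitochondrial ones, whose symbols end in 2, out of 48709 genes in the count table. RNA-Seq was performed on G1E-ER4 cells, mouse erythroid precursors without a working Gata1 gene of their own, to which GATA1 is returned as a hormone-dependent fusion with part of the estrogen receptor. The CHD4-APR group (3 libraries) received a peptide of an aggregation-prone region of the chromatin remodeler CHD4 joined to the cell-penetrating Tat sequence, and the CTRL group (3 libraries) received alanines joined to Tat. Each peptide was given at 10 μM for 2 h, and tamoxifen, which brings the fusion protein into the nucleus and starts erythroid maturation, was then present for 28 h in both groups. The tamoxifen concentration is 100 nM in the culture notes and 100 μM in the series description. The cells are 1 line, and the labels do not say whether the replicates were separate cultures, so that p-values measure the spread between these libraries, which may be technical.

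Protein synthesis draws on charged tRNA in the cytosol and, separately, inside mitochondria. Most amino acids have a cytosolic synthetase and a second, nuclear encoded enzyme that is imported into the mitochondrion, whereas Gars and Kars each encode both forms. Several cytosolic synthetases sit in a multisynthetase complex held together by 3 scaffold proteins. When amino acids run short, uncharged tRNA activates the kinase GCN2, and translation of the transcription factor ATF4 increases, which in turn binds many cytosolic synthetase genes. In maturing erythroid cells globin is a main product of this machinery.

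The libraries held 41687482 to 49784177 counts, and the 6 libraries gave 196 counts or more for every one of the 36 genes apart from Ears2 and Pars2, whose lowest values were 129 and 179. All 36 passed the filter on low counts, as did 12722 genes in all. All 13 erythroid markers found in the table also passed it. The 6 stromal markers were at 0 in every library, and the 6 lymphoid markers summed to at most 0.604 CPM (counts scaled to library size). Myeloid markers summed to 8.43 to 9.85 CPM with the CTRL peptide and 6.81 to 8.23 with the CHD4-APR peptide, without overlap. Megakaryocyte markers summed to 46.7 to 48.8 CPM with the CTRL peptide and 39.9 to 45.7 with the CHD4-APR peptide, with Vwf, Ppbp and Gp1bb near 0. The erythroid sum was 72890 to 77970 CPM with the CTRL peptide against 62360 to 66520 with the CHD4-APR peptide, and the part of these differences in the results on synthetases was not tested. In bulk RNA, fewer cells of a type and less RNA per cell cannot be told apart.

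The cytosolic genes were expressed far above the mitochondrial ones. Levels of different genes were compared as TPM (counts divided by exonic length and scaled within a library) in the CTRL libraries. The cytosolic genes had a median of 70.3 TPM and ran from 16.6 ± 0.561 for Cars, the cysteinyl enzyme, to 176 ± 5.62 for Aars, the alanyl enzyme (SD, n = 3). Farsa, which encodes a subunit of the phenylalanyl enzyme, and Wars, Vars and Sars, for tryptophan, valine and serine, had 152, 144, 143 and 134 TPM. The mitochondrial genes had a median of 9.12 TPM and ran from 1.04 ± 0.200 for Mars2 to 73.2 ± 1.76 for Lars2 (SD, n = 3), the mitochondrial leucyl enzyme. Lars2 stood apart in its class, with Iars2 next at 18.2 TPM.

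For 13 amino acids both a cytosolic and a mitochondrial gene were among the 36. The cytosolic gene had the higher TPM in 12 of the 13 pairs, and the ratio of cytosolic to mitochondrial TPM had a median of 6.93. It was widest for methionine, where Mars had 67.2 times the TPM of Mars2, and for asparagine, where the ratio of Nars to Nars2 was 38.4. Leucine was the exception, since Lars, with 48.8 TPM, was below Lars2, with a ratio of 0.667. The narrowest ratios on the usual side were those of Iars to Iars2 (2.55) and Cars to Cars2 (2.74).

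**Figure D1:**
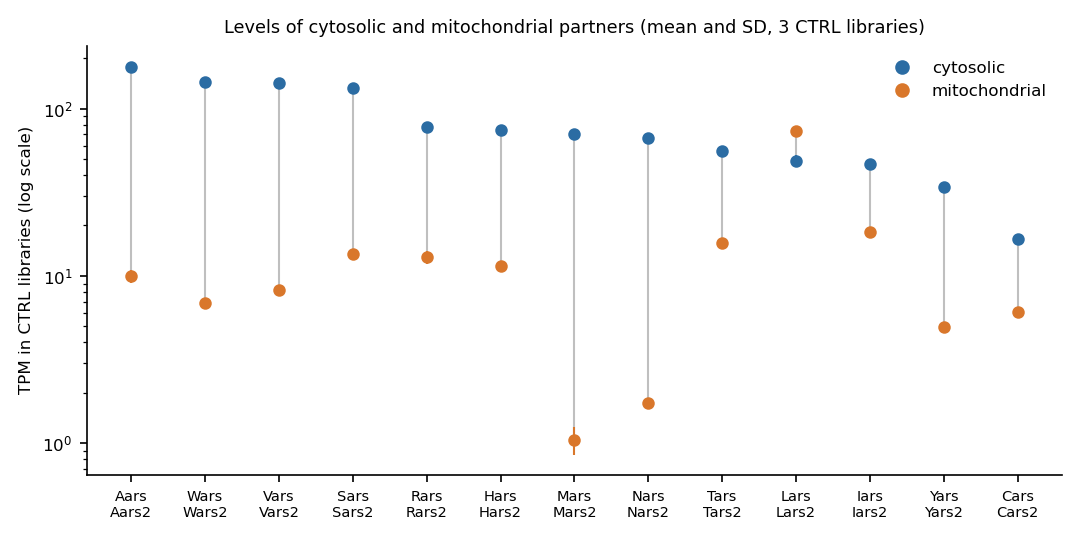
Levels in the CTRL libraries of the 13 pairs of cytosolic (blue) and mitochondrial (orange) synthetase genes, as TPM on a log axis (mean and SD, n = 3). The cytosolic gene lies above its partner in 12 pairs, and Lars lies below Lars2.

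With the CHD4-APR peptide, 10 of the 20 cytosolic genes fell and 0 rose by edgeR's quasi-likelihood test at an FDR (Benjamini-Hochberg adjusted p over all genes tested) under 0.05. Over all genes tested, 38.3% were called, 17.8% lower and 20.4% higher. The changes were small: the log2 fold changes (CHD4-APR over CTRL) ran from -0.21 to 0.15, with a median of -0.089 and a median standard error of 0.044, and 15 of the 20 were below 0. With libraries scaled by total counts alone, 4 were lower and 2 higher, with a median of -0.043. The median over all genes tested was -0.012 with the usual scaling. Genes at least as abundant as the class were closer to it. Among the 5036 genes tested with the TPM of Cars or more, 36.3% were called lower and 17.6% higher, and their median log2 fold change was -0.086. The summed level of the 20 genes was 3986 ± 48.9 CPM with the CTRL peptide and 3714 ± 30.1 CPM with the CHD4-APR peptide (SD, n = 3), a change of -6.82%. Without CHD4-APR replicate 2, 5 of the 20 were called lower, and over all genes 1528 were lower in that fit, against 2270 with all libraries.

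Sars, the seryl enzyme, had the largest fall of the class. It had 346, 325 and 326 CPM with the CTRL peptide and 290.4, 281 and 291 CPM with the CHD4-APR peptide. The groups did not overlap, and the log2 fold change was -0.21 (SE 0.042, edgeR FDR 0.00106). Cars, the least abundant of the class, had 53.7, 53.75 and 50.7 CPM against 47.4, 45.8 and 45.5, a log2 fold change of -0.19 (SE 0.051, edgeR FDR 0.00723). All 3 CHD4-APR libraries lay below all 3 CTRL libraries for Cars as well.

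Aars, at chr8:111033144-111057664 (GRCm38), the most abundant gene of the class, had 796, 797 and 783 CPM with the CTRL peptide against 685, 717 and 696 CPM with the CHD4-APR peptide. For Aars the log2 fold change was -0.18 (SE 0.040, edgeR FDR 0.00229), again with no overlap. Part of its exons, 14.3% of their length, also belongs to Exosc6 on the same strand, and reads there cannot be assigned to either gene. Farsa had 343, 328.5 and 332 CPM against 289, 296 and 302, a log2 fold change of -0.18 (SE 0.041, edgeR FDR 0.00284). Its partner subunit Farsb, with which it forms the phenylalanyl enzyme, gave 65.9, 65.1 and 61.7 CPM against 63.9, 64.2 and 64.5. The log2 fold change of Farsb was -0.0008 (SE 0.047, edgeR FDR 0.992), so that of the 2 subunits of this enzyme only Farsa passed the test, though the difference between them was not tested.

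Yars, the tyrosyl enzyme, had 99.5, 100.6 and 94.25 CPM with the CTRL peptide and 86.5, 87.0 and 90.2 CPM with the CHD4-APR peptide (log2 fold change -0.16, SE 0.046, edgeR FDR 0.0118). Rars, for arginine, had 122, 126 and 117 CPM against 109, 106 and 113 (log2 fold change -0.15, SE 0.046, edgeR FDR 0.0150). Kars, the lysyl enzyme and one of the genes with a cytosolic and a mitochondrial product, had 192, 179 and 181.5 CPM against 167, 162 and 167 (log2 fold change -0.15, SE 0.044, edgeR FDR 0.0107). Each of these genes had its groups apart. Qars, for glutamine, followed at -0.15 and Mars, for methionine, at -0.13. Wars had the weakest call, with a log2 fold change of -0.11 (SE 0.043, edgeR FDR 0.0486), and passed in only 6 of 18 other ways of processing, whereas Aars, Cars, Farsa and Sars passed in 18 of 18.

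The other 10 cytosolic genes did not pass the test. Gars, which like Kars serves both compartments, had 106, 111 and 102 CPM against 102, 99.7 and 104, and the groups overlapped (log2 fold change -0.063, SE 0.046). Eprs, whose single protein charges both glutamate and proline, had 185.5, 197 and 185 CPM against 191, 205 and 199.7 (log2 fold change 0.071, SE 0.045). Lars had 122, 134 and 124 CPM against 136, 135 and 139.5, so that its groups did not overlap although its edgeR FDR was 0.0650 (log2 fold change 0.11). Dars, for aspartate, had the highest estimate, 0.15 (SE 0.064, edgeR FDR 0.0751). Its estimate ran from 0.084 to 0.22 as each library was left out, and was -0.027 after the correction for length and GC content. Counting only whether the libraries of the groups were apart, 12 cytosolic genes were lower and 1 was higher, where 49.9% of all genes tested were apart, 25% lower and 25% higher. The estimates of Hars, Iars, Nars, Tars and Vars lay between -0.064 and 0.079.

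**Figure D2:**
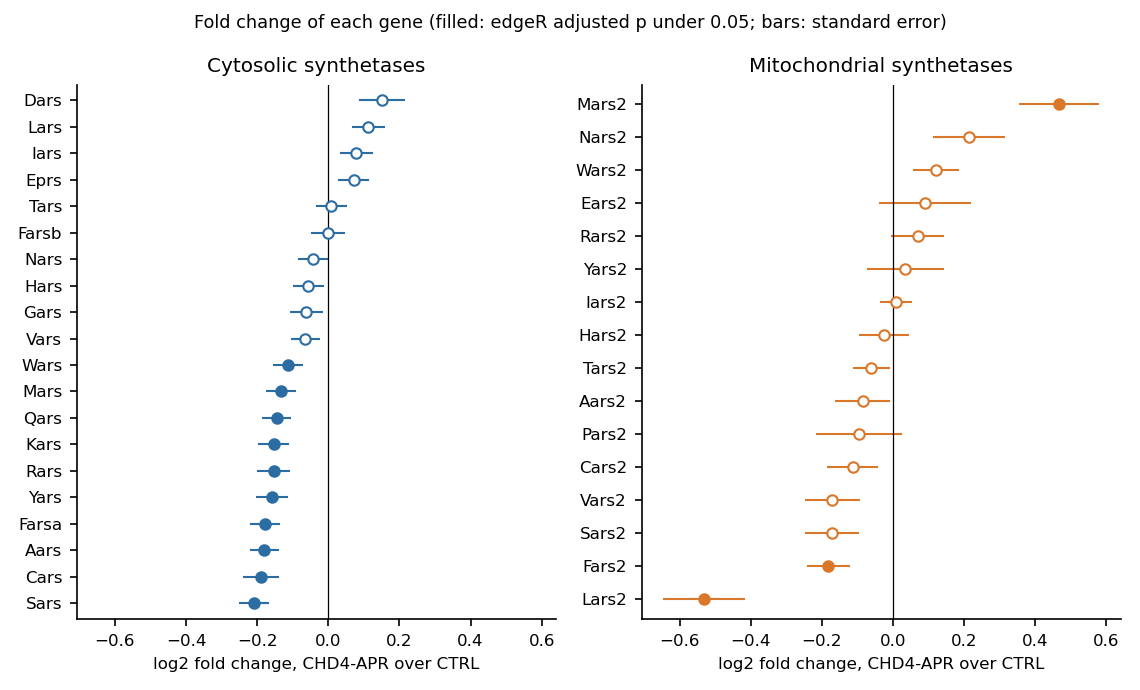
Log2 fold change (CHD4-APR over CTRL) of the 20 cytosolic and 16 mitochondrial synthetase genes with its standard error, filled where the edgeR FDR was under 0.05. The 10 filled cytosolic genes lie between -0.21 and -0.11, and the 3 filled mitochondrial genes are Lars2, Fars2 and Mars2, at -0.53, -0.18 and 0.47.

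Among the 16 mitochondrial genes 2 fell (12.5%), 1 rose (6.25%) and 13 did not pass the same edgeR test, below the 17.8% and 20.4% of all genes tested. The median log2 fold change was -0.043, or 0.0018 where libraries were scaled by total counts alone, and the log2 fold changes ran from -0.53 to 0.47 with a median standard error of 0.076. The standard error was larger than that of the cytosolic class, whose counts were higher. Fars2 lost its call in 5 of 18 other ways of processing, with estimates between -0.21 and -0.14 over the 18. The 5 were the scaling by total counts and leaving out CTRL replicate 1, CTRL replicate 3, CHD4-APR replicate 1 or CHD4-APR replicate 3. Without CTRL replicate 2 the number of mitochondrial genes called lower was 5. By the separation of the groups, 2 genes were lower and 3 were higher, namely Mars2, Nars2 and Wars2, where 25% of all genes tested were lower and 25% higher.

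Lars2, at chr9:123366927-123462666 (GRCm38), had the largest change of all 36 genes with all libraries in the fit. Its level was 415, 374.5 and 389 CPM with the CTRL peptide and 351, 213 and 252 CPM with the CHD4-APR peptide. The groups did not overlap, but the CHD4-APR libraries were widely spread, with replicate 1 close to the CTRL libraries and replicate 2 far below. The log2 fold change was -0.53 (SE 0.115, edgeR FDR 0.00173). Leaving out CHD4-APR replicate 2 gave -0.38, smaller in size than the 0.45 of Mars2 in that fit, and leaving out replicate 1 gave -0.75, and Lars2 passed the test in 18 of 18 other ways of processing.

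Lars2 carried 53.8% of the summed CPM of the mitochondrial class with the CTRL peptide and 44.7% with the CHD4-APR peptide. CPM is not divided by length, so that this share reflects its exonic length as well as its abundance. That length was 11089 bases, against a class median of 5604. The sum of the class was 730 ± 25.0 CPM with the CTRL peptide and 601 ± 72.1 CPM with the CHD4-APR peptide (SD, n = 3). Without Lars2 it was 337 ± 4.51 against 329 ± 1.31 CPM (SD, n = 3), a change of -2.33%. The median log2 fold change of the other 15 genes was -0.025.

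The level of Lars2 moved across libraries together with that of Gm42418, a gene model at the copy of the ribosomal RNA precursor on chromosome 17 (chr17:39846958-39848788). Gm42418 had 2857, 2409 and 2640.0 CPM in CTRL replicates 1 to 3 against 2618, 1871 and 2072 CPM in those of CHD4-APR, with the same CHD4-APR library highest and the same one lowest as for Lars2. Its log2 fold change was -0.27 (SE 0.089, edgeR FDR 0.0247) and its groups overlapped. The neighbouring Gm26917 had a log2 fold change of -0.22 (edgeR FDR 0.00703). Lars2 per 100 Gm42418 counts was 14.5, 15.5 and 14.7 with the CTRL peptide against 13.4, 11.4 and 12.2 with the CHD4-APR peptide, which still did not overlap. The annotated transcripts of Lars2 shared no run of 30 bases with those of Gm42418, Gm26917, mt-Rnr1 or mt-Rnr2, and other ribosomal RNA sequence was not compared. The part of ribosomal RNA in the value of Lars2 was not tested.

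**Figure D3:**
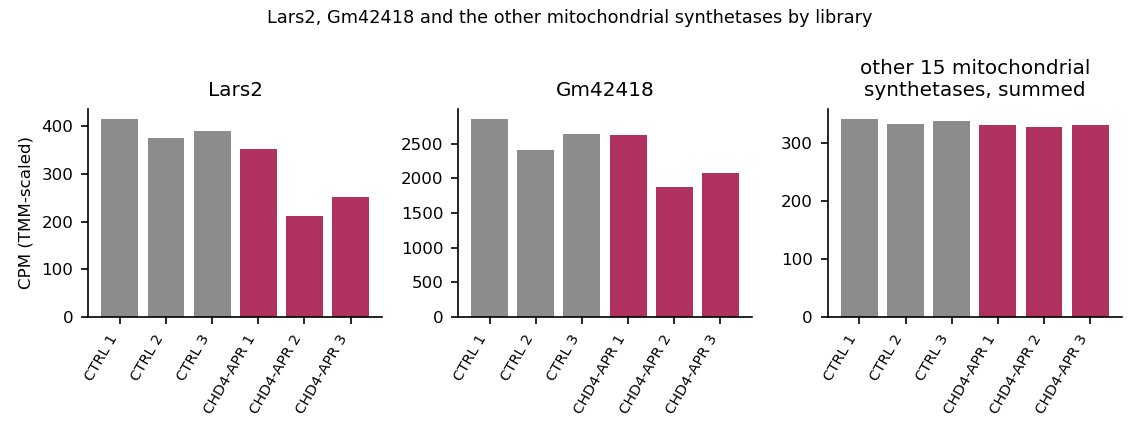
CPM in each library of Lars2, of Gm42418 and of the other 15 mitochondrial synthetase genes summed, with CTRL in gray and CHD4-APR in red. Lars2 and Gm42418 are both lowest in CHD4-APR replicate 2 and, within that group, highest in replicate 1, and the sum of the other genes stays between 327.5 and 341 CPM.

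Mars2, the mitochondrial methionyl enzyme, was the only one of the 36 genes that rose, and its call was lost after a correction for length and GC content, at 0.10 (edgeR FDR 0.483). It had 4.63, 6.26 and 6.16 CPM with the CTRL peptide and 7.54, 8.07 and 7.98 CPM with the CHD4-APR peptide, without overlap (log2 fold change 0.47, SE 0.113, edgeR FDR 0.00385). It was also the least abundant per length, and its transcript had the lowest GC content of the 36 genes, 38.8%. Its cytosolic partner Mars fell by 0.13 on the log2 scale. Fars2, the mitochondrial phenylalanyl enzyme, which works as a single chain unlike its cytosolic counterpart, had 31.6, 29.5 and 31.0 CPM against 26.1, 28.15 and 26.9 (log2 fold change -0.18, SE 0.060, edgeR FDR 0.0238). Sars2 and Vars2, with log2 fold changes of -0.17 each, had an edgeR FDR of 0.0849 and 0.0919. Nars2 had a log2 fold change of 0.21 (SE 0.101, edgeR FDR 0.107) and Wars2 one of 0.12 (SE 0.064, edgeR FDR 0.152).

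**Figure D4:**
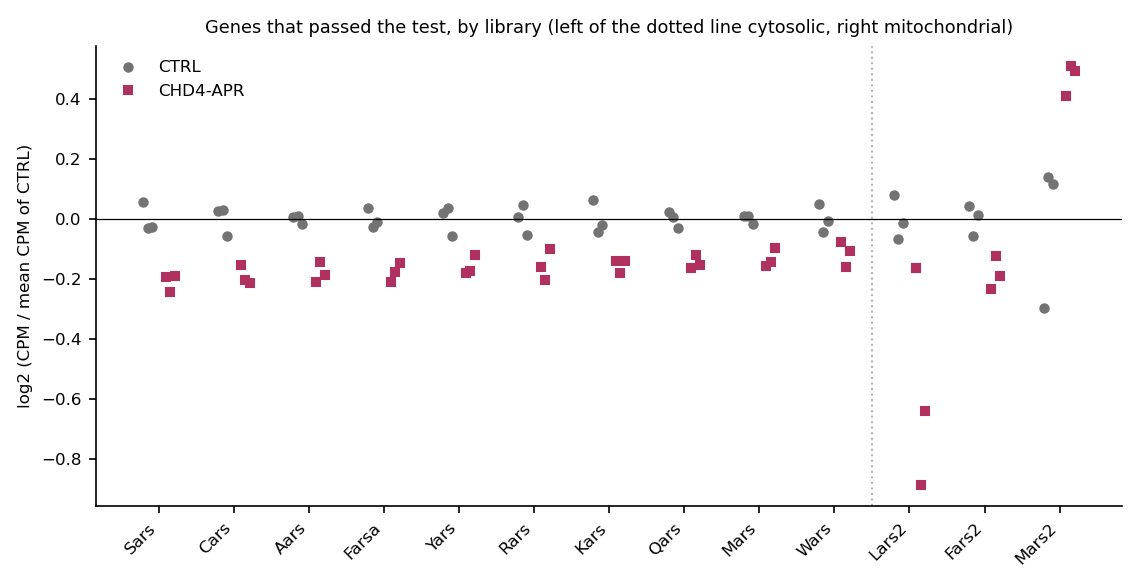
Level in each library of the 13 synthetase genes that passed the test, as log2 of CPM over the mean of the CTRL libraries (circles CTRL, squares CHD4-APR). In all 13 the groups are apart. The squares of Lars2 are the most scattered, and those of Mars2 are the ones above the line.

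Before the correction for length and GC content, the partners for one amino acid had log2 fold changes of the same sign in 6 of 13 pairs. In 9 of the 13 pairs the value of the cytosolic gene was below that of its mitochondrial partner. Alanine and serine had both members on the same side, with Aars at -0.18 and Aars2 at -0.086, and with Sars at -0.21 and Sars2 at -0.17. After that correction Aars and Aars2 had opposite signs, at -0.18 and 0.035, and Sars and Sars2 were at -0.18 and -0.021. Leucine and methionine were the furthest apart, with Lars at 0.11 against Lars2 at -0.53 and with Mars at -0.13 against Mars2 at 0.47. After the correction Lars and Lars2 were at 0.021 and -0.64, and Mars and Mars2 were closer together, at -0.043 and 0.10. Whether the classes differ was not tested, because genes are not replicates of a condition. The medians were -0.089 and -0.043, with a difference of -0.046, and the pooled SD of this difference between libraries was 0.022.

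The genes were also divided by complex, by regulator and by catalytic fold, and no difference between the divisions was tested. These counts stand beside the 17.8% of all genes tested that were lower and the 36.3% of those at least as abundant as Cars. Of the 8 genes for enzymes of the multisynthetase complex 4 fell, 4 had log2 fold changes below 0 and the median was -0.031. Of the 12 other cytosolic genes 6 fell, 11 were below 0 and the median was -0.089. After the correction for length and GC content, the medians were -0.12 for the complex and -0.10 outside it, so that their order turned around. Of the 12 cytosolic genes listed as known targets of ATF4 6 fell, and of the other 8 cytosolic genes 4 fell. By the fold of the catalytic domain, 7 of 19 class I genes fell (36.8%) and 1 rose, and 5 of 18 class II genes fell (27.8%) and 0 rose, with Eprs in both classes. The median log2 fold changes were -0.064 for class I and -0.062 for class II.

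The fold changes followed the base composition of the transcripts. Of the 11 genes with a GC content of 52% or more, 11 had a log2 fold change below 0 and 7 fell, with a median of -0.17. Of the 10 genes between 48% and 52%, 8 were below 0 and 3 fell, with a median of -0.079. Of the 15 genes under 48%, 5 were below 0, 2 fell and 1 rose, with a median of 0.034. Genes of any GC content were lower in 17.8% and higher in 20.4% of those tested. Spearman's correlation of log2 fold change with GC content was -0.714 over the 36 genes, -0.632 over the cytosolic and -0.821 over the mitochondrial ones, and -0.456 over 12677 genes tested with a known length and GC content. These correlations are across genes measured in the same 6 libraries, and genes are not independent replicates.

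A correction of each library for exonic length and GC content changed which genes passed. The correlation with GC content became -0.081 over the 36 genes, 0.125 over the cytosolic and -0.379 over the mitochondrial ones. By edgeR after the correction, 10 cytosolic genes were lower and 0 higher, with a median log2 fold change of -0.10, where 13.8% of all genes were lower and 12.8% higher. Mars and Wars were no longer called, and Eprs and Tars were called lower. Eprs went from 0.071 to -0.27 (edgeR FDR 2.00e-04). Its exonic length of 18102 bases, taken over the exons of all its annotated transcripts, was the longest of the 36. In the mitochondrial class 4 genes were lower (Lars2, Fars2, Cars2 and Iars2) and 0 higher, since Mars2 was no longer called. Lars2 was at -0.64 after the correction. For Iars2, 22.9% of the exonic length overlaps Rab3gap2 on the opposite strand, and the library kit does not mark strand.

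**Figure D5:**
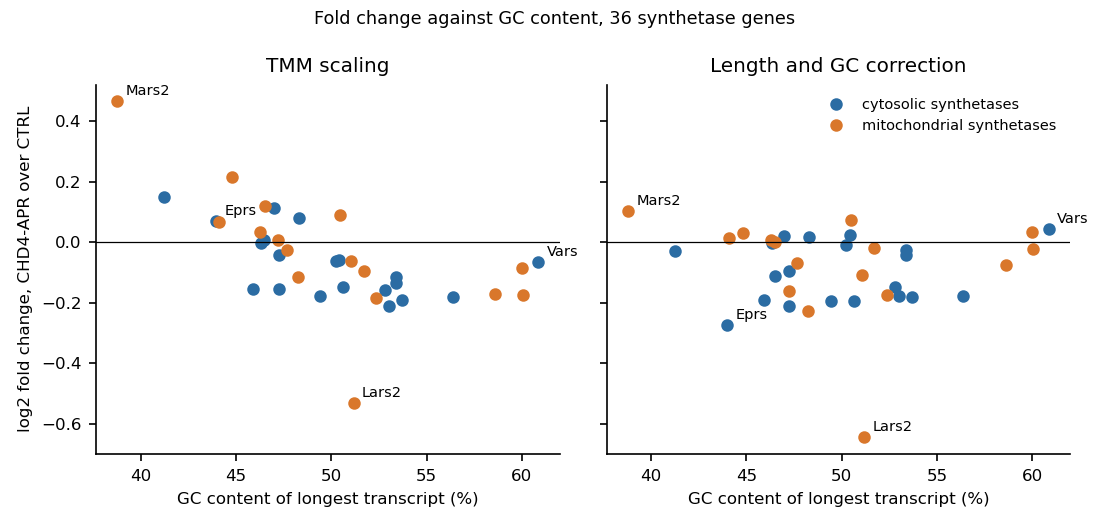
Log2 fold change (CHD4-APR over CTRL) against GC content of the longest transcript, for 20 cytosolic (blue) and 16 mitochondrial (orange) synthetase genes, with TMM scaling and after the length and GC correction. Spearman's correlation over the 36 genes is -0.714 on the left and -0.081 on the right, where it is -0.379 over the mitochondrial genes and Lars2 stays lowest.

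Promoter windows, from 250 bases before to 50 bases after the start of each gene in RefSeq (GRCm38.p6), were at hand for 27 of the 36 genes, 13 cytosolic and 14 mitochondrial. Those of Cars, Hars, Lars, Nars, Rars, Vars, Wars, Hars2 and Pars2 were not used here. The classes were searched on both strands for 5 motifs, none of which contains another. TGATGNAA, the core of the composite element bound by C/EBP and ATF factors that marks amino acid response genes, was in 5 of 13 cytosolic and 0 of 14 mitochondrial windows, and in 4.51% of the windows of 27025 genes and 2.575% of those of 8505 genes tested. A site of each gene is shown because this is the sequence feature in which the classes were furthest apart, with 10 bases on either side, on the strand where the motif reads and with the motif in capitals.
Aars, chr8:111033841-111033868, opposite strand to the gene: cagagcgctcTGATGAAAagtgacccgc
Gars, chr6:55037961-55037988, opposite strand to the gene: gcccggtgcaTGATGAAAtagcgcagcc
Iars, chr13:49682127-49682154, opposite strand to the gene: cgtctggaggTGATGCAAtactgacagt
Tars, chr15:11399656-11399683, opposite strand to the gene: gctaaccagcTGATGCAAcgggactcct
Yars, chr4:129189896-129189923, strand of the gene: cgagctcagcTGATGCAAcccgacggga

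Of the 5 genes with this motif, Aars and Yars fell and Gars, Iars and Tars did not pass the test, with log2 fold changes between -0.18 and 0.079. Of the 8 cytosolic genes with a window and no match, 5 fell. Both counts are small, their difference was not tested, and 36.3% of the genes at least as abundant as Cars were lower. The core of the NRF1 motif, GCGCATGC, was in 0 of 13 cytosolic and 3 of 14 mitochondrial windows. It was in 3.05% of all windows and 6.62% of those of genes tested, and the difference between these small class counts was not tested. NRF1 is a factor of many nuclear genes for mitochondrial proteins, and the sites are shown in the same way.
Rars2, chr4:34614896-34614923, opposite strand to the gene: agtgtggagtGCGCATGCacacggggcc
Vars2, chr17:35667621-35667648, opposite strand to the gene: ggacacgcagGCGCATGCgtaaaagact
Vars2, chr17:35667595-35667622, opposite strand to the gene: cgaggtgcgcGCGCATGCgtgggcgggg
Wars2, chr3:99141016-99141043, strand of the gene: cagaggacagGCGCATGCgtagtaagca

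None of Rars2, Vars2 and Wars2 passed the test, with log2 fold changes of 0.069, -0.17 and 0.12. The E-box CACGTG was in the windows of Aars, Farsb, Iars, Tars and Ears2, and in 12.1% of those of genes tested. The ETS motif CCGGAAGT was in those of Farsa, Mars and Rars2, against 10.8%, and the GATA motif AGATAA in those of Farsb, Aars2 and Sars2, against 7.77%. A match describes these letters and not binding.

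Genes that work with the synthetases are given as counts beside the 17.8% of all genes tested that were lower and the 20.4% that were higher. Of the 3 scaffolds of the multisynthetase complex, Aimp1 fell, from 98.2 ± 5.19 to 84.8 ± 5.33 CPM (SD, n = 3), with a log2 fold change of -0.21 (SE 0.054, edgeR FDR 0.00588). Aimp2 was at -0.14 (SE 0.066, edgeR FDR 0.122) and Eef1e1 at 0.17 (SE 0.096, edgeR FDR 0.183). After the length and GC correction Aimp1 was at -0.50 (edgeR FDR 7.36e-05), and Aimp2 and Eef1e1, at 0.022 and 0.097, were still not called. Of the related genes whose names fall outside the rule, Gatb and Gatc fell, and Tarsl2 and Sepsecs rose. Gatb and Gatc encode subunits of the amidotransferase that makes glutaminyl-tRNA in mitochondria, and had log2 fold changes of -0.18 (edgeR FDR 0.0353) and -0.21 (edgeR FDR 0.00311). Tarsl2, a second threonyl enzyme of the cytosol, was at 0.37 (edgeR FDR 0.0201) and Sepsecs, which makes selenocysteinyl-tRNA, at 0.26 (edgeR FDR 0.00874), and neither was called after the length and GC correction. Pstk and Qrsl1 did not pass.

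Of 4 genes that clear mischarged tRNA, Prorsd1 fell, with a log2 fold change of -0.18 (edgeR FDR 0.0311). Of 18 genes for the maturation, export and modification of tRNA, 1 fell and 1 rose, or 5.56% in each direction. They were Trmt1, which methylates a guanosine of many tRNAs, at -0.25 (edgeR FDR 0.00120), and Xpot, the nuclear exporter of tRNA, at 0.21 (edgeR FDR 0.00143). After the length and GC correction Xpot was at 0.093 (edgeR FDR 0.0625), and 3 genes of this list were called lower and 0 higher. Of 11 mitochondrial translation factors 3 fell (27.3%) and 0 rose. They were the ribosome recycling factor Mrrf at -0.27, the initiation factor Mtif3 at -0.24 and the elongation factor Tufm at -0.20. Tufm was no longer called after the length and GC correction, at -0.046 (edgeR FDR 0.396), when 5 of the 11 were lower, and 13.8% of all genes were lower and 12.8% higher.

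Amino acid response genes outside the synthetases were called in both directions. Of 24 listed, 20 passed the filter on low counts, 7 fell (35.0%) and 4 rose (20.0%), where 17.8% of all genes tested and 36.3% of those at least as abundant as Cars were lower, and 20.4% of all were higher. Ddit3, which encodes CHOP, fell from 291.5 ± 10.6 to 225 ± 5.54 CPM (SD, n = 3), with a log2 fold change of -0.37 (SE 0.043, edgeR FDR 9.24e-06). It overlaps the exons of Mars over 68 bases on the opposite strand. Eif4ebp1 was at -0.31 (edgeR FDR 8.66e-04). Atf4 itself was at -0.24 (edgeR FDR 0.00143), and its relative Atf5 at -0.28 (edgeR FDR 3.42e-04). Slc38a2 and Slc7a1, the transporters of neutral and of cationic amino acids, rose with log2 fold changes of 0.50 and 0.40 (edgeR FDR 2.32e-06 and 7.95e-05). After the length and GC correction Ddit3 and Eif4ebp1 stayed lower, at -0.34 and -0.26. Slc38a2 and Slc7a1 stayed higher, at smaller values of 0.28 each, whereas 6 genes were no longer called. Among these Asns stayed close to its value, at -0.11 after -0.13, and Atf4, Atf5 and Slc3a2 went to -0.097, -0.086 and -0.082. Shmt2 went from -0.16 to -0.019, and Cebpg from 0.13 to -0.048. Aldh18a1, an enzyme of proline synthesis, was newly called higher, at 0.19 (edgeR FDR 0.00618), so that 2 genes of the list were lower and 4 higher, where 13.8% of all genes were lower and 12.8% higher.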

How the data were processed

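Poly(A) RNA of 6 samples was sequenced. Reads were trimmed by the authors (Cutadapt), mapped to GRCm38 with STAR 2.7.10a under Ensembl release 86, and assigned to genes with featureCounts, and the deposited values are raw counts. The strand setting of the counting is not given in the sources used here. The table has 2 further columns that belong to no sample of the series, which were left out.

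The counts were analysed with edgeR 4.0.16 in R 4.3.3 (filterByExpr, TMM, quasi-likelihood F-test, Benjamini-Hochberg over 12722 genes, threshold 0.05), with limma 3.58.1 and DESeq2 1.42.0 as alternatives. Groups followed the labels. The fits were tested on simulated counts. CPM used TMM-scaled library sizes. Lengths, GC content and positions came from GENCODE M21 (GRCm38), which named 48349 of 48709 identifiers. Exonic length is the union of the exons of all annotated transcripts of a gene, and GC content is that of its longest transcript. The correction for length and GC content took the deviation of each library's log2 CPM from the gene's mean over libraries. It smoothed these deviations by loess (span 0.4) and passed the trend as offsets.

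All 36 genes are reported. Library values are given for up to 6 called genes per class with the largest change and groups apart, called genes against the majority of their class, Gars, Kars, Eprs, the highest and lowest TPM of each class, and for context Farsb, Lars, Gm42418. The members and lists were chosen with earlier results of these data known. No test was run over lists. Replicates differed beyond sampling noise, with chi-square over degrees of freedom of 4.64 to 15.8. The total counts were 41687482 to 49784177, and counting error weighs most on the mitochondrial genes with the fewest counts, Ears2, Pars2 and Mars2. A few items are not reported here.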

Additional observations from a re-analysis of the deposited data

How the results depend on the processing

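Aars, Cars, Farsa, Sars and Lars2 passed the test in each of the 18 alternatives, among them DESeq2, limma-voom, other scalings and filters, the correction for length and GC content, and leaving out each library. Scaling by total counts alone left 6 cytosolic genes called, 4 lower and 2 higher, with a median log2 fold change of -0.043, and 1 mitochondrial gene lower, with a median of 0.0018, while 1474 genes were lower in all. The mitochondrial median was -0.060 with upper quartile scaling and -0.025 without Lars2, an alternative chosen after seeing the data. Without a filter 1 cytosolic gene was called higher. At an adjusted p under 0.01, 5 cytosolic genes were called, 5 of them lower, with 1 mitochondrial gene lower and 1308 genes lower in all. After the length and GC correction 4 mitochondrial genes were lower and 0 higher, the mitochondrial median was -0.020, the cytosolic minus the mitochondrial median was -0.083, and 1625 genes were higher in all.

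The labels do not say whether libraries with the same replicate number were paired. The correlations of same-numbered deviations were 0.070, 0.055 and -0.035, and only number 1 and number 2 correlated best with their own number. With so few libraries these values cannot decide on pairing. With the replicate block, 1 cytosolic gene was called higher beside 10 lower, and 5 mitochondrial genes were called, 4 of them lower. Over all genes 5214 were called with the block, against 4871 without it. With the block and the length and GC correction together, 4 mitochondrial genes were lower and 0 higher, the mitochondrial median was -0.019 and the difference between the medians -0.083.

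Leaving out each library in turn gave 5 to 12 cytosolic genes called, 5 to 10 lower and 0 to 2 higher, and 2 to 6 mitochondrial genes called, 1 to 5 lower, where 3703 to 4928 of all genes were called, 1528 to 2315 lower and 2175 to 2613 higher. The fewest cytosolic calls came without CHD4-APR replicate 2. The mitochondrial median ran from -0.046 to -0.011, and the difference between the medians from -0.081 to -0.032.

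Uncalled estimates of 11 genes changed sign, most of them near 0. Dars, at 0.15, was not, and was called higher in 5 alternatives. With the length and GC correction, and again with the block added, these were Dars (-0.027, -0.026), Eprs (-0.27, -0.27), Hars (0.024, 0.024), Tars (-0.11, -0.11), Vars (0.043, 0.044), Aars2 (0.035, 0.036) and Iars2 (-0.16, -0.16), of which Eprs, Tars and Iars2 were then called. With total counts alone they were Farsb (0.044), Nars (0.0022) and Hars2 (0.020). With upper quartile scaling Tars was at -0.0082 and Iars2 at -0.0078, and with protein-coding genes only Tars was at -0.00049 and Iars2 at -0.00033. Farsb was at 0.0024 with DESeq2, 0.0024 with RLE size factors, 0.0022 without a filter, 0.0011 under a filter of 10 counts in each library and 0.00018 without hemoglobin genes. Over the libraries left out, Farsb ran from -0.030 to 0.017, Tars from -0.018 to 0.033, Hars2 from -0.097 to 0.026 and Yars2 from -0.063 to 0.12. The cause of these shifts was not tested. The depth was enough for the cytosolic genes to have a median standard error of 0.044, and the mitochondrial ones, with fewer counts, had 0.076.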

Other observations

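Several synthetase genes lie head to head with another gene. Hars and Hars2 start on opposite strands and share 195 exonic bases, and neither passed the test, at -0.057 and -0.025. Rars2 starts 13 bases from Orc3, Yars 33 bases from S100pbp, Kars 75 bases from Terf2ip and Sars2 172 bases from the mitochondrial ribosomal protein gene Mrps12. The exons of Farsb overlap those of Sgpp2 over 9.47% of their length on the opposite strand, and those of Fars2 overlap Nrn1 over 8.72%. Since the kit does not mark strand, reads in such overlaps cannot be told apart.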
